A study of Mus musculus with 6 samples.

Results

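The calmodulin-dependent protein kinases were examined in newborn mouse cortex, as the genes Camk2a, Camk2b, Camk2d and Camk2g (the CaMKII subunits), Camk1, Camk1d and Camk1g (CaMKI isoforms), Camk4 (CaMKIV), and Camkk1 and Camkk2 (the CaM kinase kinases). Members were chosen by gene symbol, taking every probe set whose only symbol in the array's annotation is one of these 10 genes. This gave 31 probe sets for 9 genes, of 45037 probe sets and 18193 genes in all. No probe set was assigned to Camkk1, so its expression is not analysed here. The family was put together with results of the genotype comparison known, so the differences of its members are a description. Their p-values are not printed, and whether a member passed the threshold is given as part of that description. The differences and calls support nothing beyond themselves.

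RNA came from retrosplenial cortex and subiculum, dissected together on postnatal day 1 from D6/Zbtb20S transgenic mice of the C57BL/6 strain, where the tissue is labelled as transformed to CA1, and from their wildtype littermates of the same strain. D6 is a cortical enhancer of the Dach1 gene, and Zbtb20S is the short form of the zinc finger repressor Zbtb20, which marks developing hippocampal pyramidal neurons. Each group had 3 Affymetrix arrays, with RNA of 7 animals pooled for each, so that differences between single animals are not visible. The labels do not say whether the pools came from separate litters, and p-values measure only the spread between these pools.

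CaM kinases are serine/threonine kinases that are switched on when calcium-loaded calmodulin displaces an autoinhibitory segment. CaMKII assembles into large holoenzymes that phosphorylate themselves and keep part of their activity after calcium falls, and it is a central enzyme of synaptic plasticity in forebrain excitatory neurons. CaMKI and CaMKIV act as monomers and need a second input, phosphorylation of their activation loop by CaM kinase kinase, and CaMKIV acts mainly in the nucleus, on transcription factors such as CREB.

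Signals are log2 values, so a difference of 1 is a doubling, and ± after a difference is its standard error in the limma fit. Array medians lay between 3.83 and 3.97, and a probe set near or under them may have its fold compressed. On the probe set 1422064_a_at Zbtb20, the gene of the transgene, read 8.88, 9.10 and 8.94 in D6/Zbtb20S arrays, against 6.44, 5.84 and 7.64 in wildtype arrays (limma adjusted p = 0.00904). It was the 1 of 9 Zbtb20 probe sets that passed, and the other 8 differed by -0.37 to 0.85, 4 of them positive and 4 negative. Wildtype replicate 3 was the highest wildtype array on all 9, and so the nearest to the transgenic ones on 1422064_a_at. On the others except 1437066_at it lay above every D6/Zbtb20S array. On 1437598_at, for instance, it read 8.98, against 8.11, 8.26 and 8.25 in D6/Zbtb20S arrays. The gap between 3′ and 5′ actin control probe sets, a sign of RNA quality, was 0.80, 0.91 and 0.83 in D6/Zbtb20S replicates 1, 2 and 3, against 0.53, 0.88 and 1.31 in wildtype replicates 1, 2 and 3. Of 7 measured glutamatergic neuron markers, the labelled tissue's own cells, 0 lay under the array median on all arrays, while 2 were higher and 2 lower in D6/Zbtb20S tissue, with values given among the markers at the end. In bulk tissue, fewer cells of a type and less RNA per cell cannot be told apart.

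The genotypes differed for a few members of the family and in both directions. Camk4 was 3.17-fold lower in D6/Zbtb20S tissue, Camk1d 1.41-fold and 2.53-fold higher on 2 probe sets, and Camk2a 1.57-fold higher on its brightest probe set. Of 31 probe sets, 3 were higher, 1 was lower and 27 did not pass an adjusted p under 0.05 in limma with Benjamini-Hochberg adjustment over all probe sets. Over the whole array 5.52% of probe sets passed in that fit, 3.4% higher and 2.11% lower, and nothing is read from the members' count against it, since the family was chosen with this comparison known. With equal array medians or quantile normalization 3 members were higher and 2 lower, where 3.92% and 3.84% of all probe sets were higher and 2.62% and 2.64% lower. The arrays of the genotypes did not overlap on 9 of the 31, with D6/Zbtb20S above on 5 and below on 4, where 23.7% of all probe sets had no overlap (11.9% above, 11.8% below). On 15 probe sets the signal lay above the array median on all 6 arrays, and on 11 it lay under it on all 6.

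**Figure D1:**
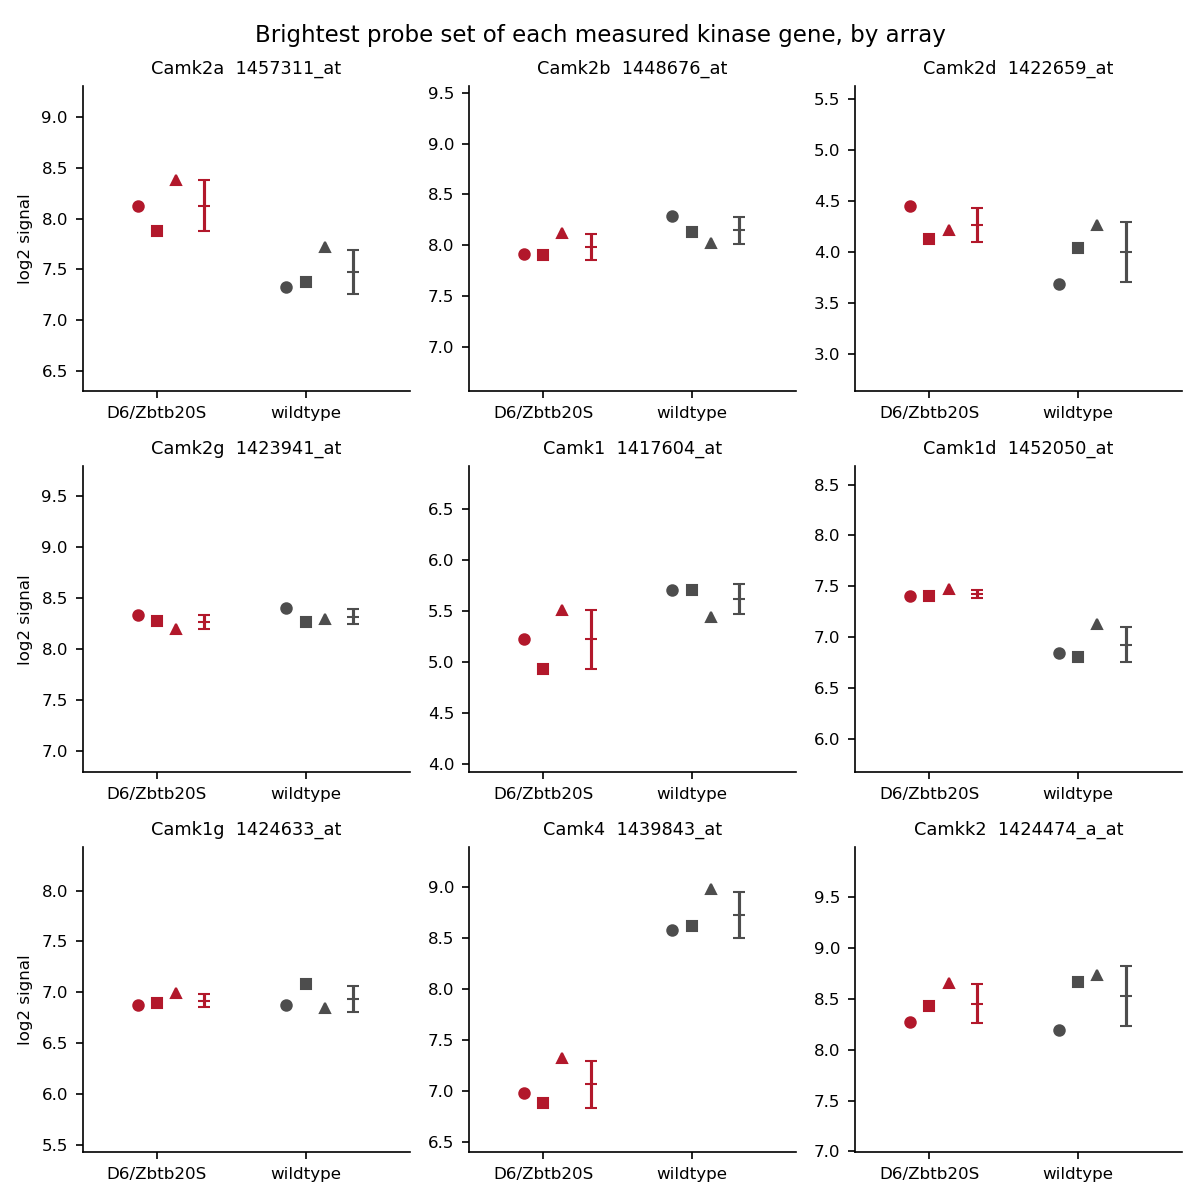
Log2 signal of the brightest probe set of each measured kinase gene in every array, with D6/Zbtb20S (red) left of wildtype (grey). Circles, squares and triangles are replicates 1, 2 and 3, the bar at the right of each group is its mean ± SD (n = 3), and all panels span the same number of log2 units. Camk4 shows the widest gap (mean 7.06 in D6/Zbtb20S, 8.73 in wildtype), with Camk2a and Camk1d higher in D6/Zbtb20S. The Camk2b, Camk2d, Camk2g, Camk1, Camk1g and Camkk2 groups overlap.

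Camk2a encodes the alpha subunit, the abundant form of forebrain excitatory neurons whose level climbs after birth. On 1457311_at, its brightest probe set, the signal was 8.12, 7.88 and 8.38 in D6/Zbtb20S arrays, against 7.33, 7.38 and 7.72 in wildtype arrays. Every transgenic array lay above every wildtype one, and the difference of 0.65 ± 0.15 passed the threshold. It passed without D6/Zbtb20S replicate 2 and without wildtype replicate 3 (0.77 in both cases), but not without D6/Zbtb20S replicate 1 (0.65) or 3 (0.52) or wildtype replicate 1 (0.57) or 2 (0.60). The next brightest, 1437125_at, read 5.65, 5.45 and 5.94 in D6/Zbtb20S arrays, against 5.28, 5.18 and 5.33 in wildtype arrays, again with no overlap, but its difference of 0.41 ± 0.12 did not pass. The remaining 4 Camk2a probe sets had overlapping groups and differences from -0.10 to 0.18, 2 of them at signals under the array median on all arrays. The difference therefore passed on 1 of 6 probe sets, and as the mean of the 6 the Camk2a difference was 0.21 and did not pass.

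Camk2b encodes the beta subunit, which ties the holoenzyme to actin filaments and is present early in development. Its only probe set, 1448676_at, read 7.92, 7.91 and 8.13 in D6/Zbtb20S arrays and 8.29, 8.13 and 8.02 in wildtype arrays. The groups overlapped, and the difference of -0.17 ± 0.10 had a 95% interval of -0.40 to 0.07.

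Camk2g, the gamma subunit gene, read 8.33, 8.27 and 8.19 in D6/Zbtb20S arrays on 1423941_at, against 8.40, 8.26 and 8.29 in wildtype arrays. Its 2 probe sets differed by -0.05 ± 0.08 and 0.07 ± 0.11, with overlapping groups on both and 95% intervals of -0.24 to 0.14 and -0.18 to 0.31.

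Camk2d, the delta subunit gene, is best known from heart, and most of its probe sets lay under the array median. Its brightest probe set, 1422659_at, read 4.45, 4.13 and 4.21 in D6/Zbtb20S arrays and 3.69, 4.04 and 4.27 in wildtype arrays, with overlap and a difference of 0.27 ± 0.15. Of its 7 probe sets 5 lay under the array median on all arrays, none passed, and differences ran from -0.17 to 0.31. On 1456844_at all D6/Zbtb20S arrays lay above the wildtype ones and on 1427763_a_at all lay below, both under the array median.

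Of the 4 CaMKII genes, Camk2a alone had a probe set past the threshold. Whether the Camk2a difference exceeded that of Camk2b, Camk2d or Camk2g was not tested.

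**Figure D2:**
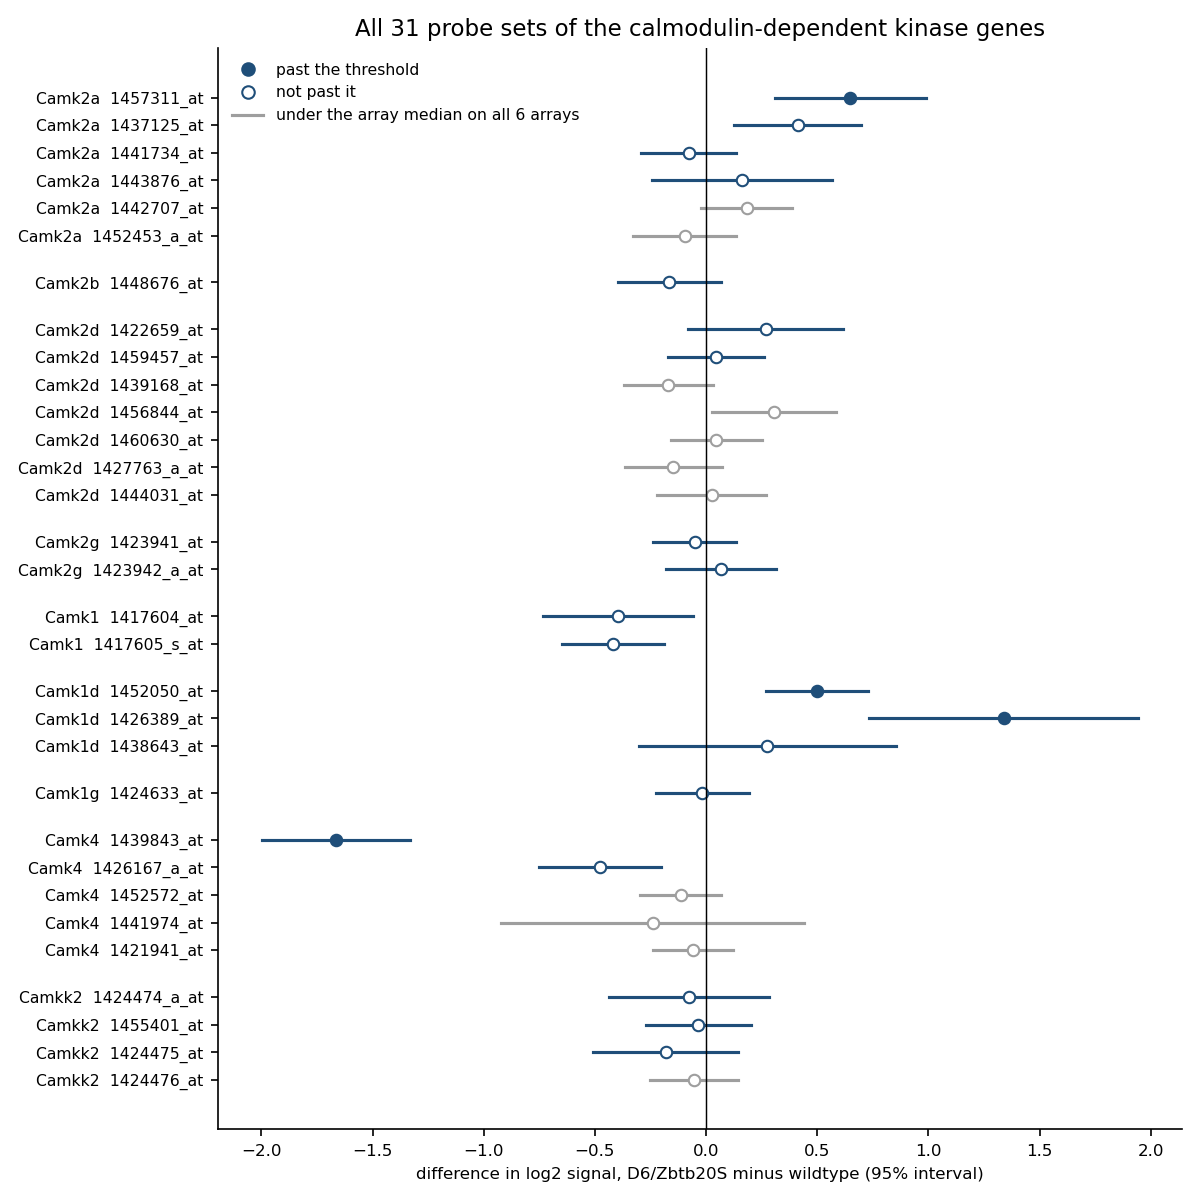
Difference in log2 signal, D6/Zbtb20S minus wildtype, of all 31 probe sets with its unadjusted 95% interval from the limma fit, grouped by gene with the brightest probe set of a gene at the top. Filled points passed the threshold over all probe sets, open points did not, and grey marks probe sets under the array median on all 6 arrays. The filled points are 1439843_at of Camk4 at -1.66, 1426389_at and 1452050_at of Camk1d at 1.34 and 0.50, and 1457311_at of Camk2a at 0.65.

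Camk4 encodes CaMKIV, the nuclear kinase of neurons and T cells that phosphorylates CREB. On 1439843_at it read 6.98, 6.88 and 7.32 in D6/Zbtb20S arrays, against 8.58, 8.62 and 8.98 in wildtype arrays. The highest transgenic array lay well under the lowest wildtype one, and the group means were 7.06 ± 0.23 in D6/Zbtb20S and 8.73 ± 0.22 in wildtype tissue (SD, n = 3 each). The difference of -1.66 ± 0.15 was the widest among the 31 probe sets. It stayed between -1.79 and -1.54, and past the threshold, whichever array was left out, but did not pass in an ordinary linear model without empirical Bayes.

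The other Camk4 probe sets lay near or under the array median. On 1426167_a_at the signal was 3.36, 3.65 and 3.41 in D6/Zbtb20S arrays, against 3.93, 4.15 and 3.77 in wildtype arrays. All transgenic arrays lay below the wildtype ones, and the difference of -0.48 ± 0.12 did not pass, at signals close to the array median. It did pass without wildtype replicate 3 (-0.56) and with array weights (-0.55). The remaining 3 lay under the array median on all arrays, with overlapping groups and differences from -0.24 to -0.06. All 5 Camk4 differences were therefore negative, and 1 passed. Which part of the transcript each probe set reads was not used here.

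Camk1d encodes the delta isoform of CaMKI. Its brightest probe set, 1452050_at, read 7.40, 7.40 and 7.47 in D6/Zbtb20S arrays, against 6.85, 6.81 and 7.13 in wildtype arrays. The transgenic arrays were close together and all above the wildtype ones, by 0.50 ± 0.10. On 1426389_at the signal was 5.49, 5.58 and 5.79 in D6/Zbtb20S arrays, against 3.80, 4.07 and 4.98 in wildtype arrays, a difference of 1.34 ± 0.26. Here wildtype replicate 3 stood apart from the other wildtype arrays and replicate 1 was under the array median, so the wildtype SD was 0.62 against 0.15 in D6/Zbtb20S. The order of the wildtype arrays was also that of their actin 3′ and 5′ gap (0.53, 0.88 and 1.31), whose part in the result was not tested.

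Both Camk1d probe sets passed with all arrays and without wildtype replicate 3, where the differences were 0.60 on 1452050_at and 1.69 on 1426389_at. They did not pass when any of the other 5 arrays was left out. On 1452050_at the differences were then 0.51, 0.51 and 0.48 without D6/Zbtb20S replicates 1, 2 and 3, and 0.46 and 0.44 without wildtype replicates 1 and 2. On 1426389_at they were 1.40, 1.36 and 1.25 without D6/Zbtb20S replicates 1, 2 and 3, and 1.10 and 1.23 without wildtype replicates 1 and 2. The third probe set, 1438643_at, read 4.16, 4.13 and 4.92 in D6/Zbtb20S arrays and 3.67, 4.24 and 4.47 in wildtype arrays, with overlap and a difference of 0.28 ± 0.25. All 3 Camk1d differences were positive.

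Camk1d has 2 start sites in the RefSeq promoter table (GRCm38.p6), both on chromosome 2 and on the minus strand. Their windows, from 250 bases before to 50 after the start, are shown because Camk1d had the most probe sets past the threshold. Capitals mark GC boxes (GGGCGG, either strand), the sites of Sp-family factors.
Camk1d chr2:5714713-5715012: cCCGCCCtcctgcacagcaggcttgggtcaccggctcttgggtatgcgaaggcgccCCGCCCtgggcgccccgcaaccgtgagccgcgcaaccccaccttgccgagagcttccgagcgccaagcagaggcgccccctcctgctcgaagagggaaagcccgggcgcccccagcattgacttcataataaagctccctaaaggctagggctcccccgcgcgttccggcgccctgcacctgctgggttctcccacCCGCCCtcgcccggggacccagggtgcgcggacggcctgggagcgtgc
Camk1d chr2:5675997-5676296: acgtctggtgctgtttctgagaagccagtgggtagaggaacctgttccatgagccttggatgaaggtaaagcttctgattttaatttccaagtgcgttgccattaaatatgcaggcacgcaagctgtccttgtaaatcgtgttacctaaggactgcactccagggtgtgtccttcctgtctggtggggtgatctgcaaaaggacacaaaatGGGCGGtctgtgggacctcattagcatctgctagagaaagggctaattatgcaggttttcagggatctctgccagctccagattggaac
The windows are unlike in composition. That at chr2:5714713-5715012 is 71.3% G and C with 29 CpG dinucleotides and holds 3 GC boxes, and that at chr2:5675997-5676296 is 48.7% G and C with 5 CpG and holds 1. Over all 32851 promoter windows in the table the medians were 52.7% and 7 CpG. A GC box was present in 35.7% of all windows and in 6 of the 8 windows of the 7 member genes in the table, Camkk1 among them. The E-box CANNTG, bound by neurogenic basic helix-loop-helix factors, was present in both Camk1d windows, in 4 of the 8 and in 72.3% of all. The short cAMP response element TGACG, on either strand, was in neither Camk1d window, in 2 of the 8 and in 20.8% of all. No E-box overlapped a GC box in the Camk1d windows, and these counts describe letters only.

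**Figure D3:**
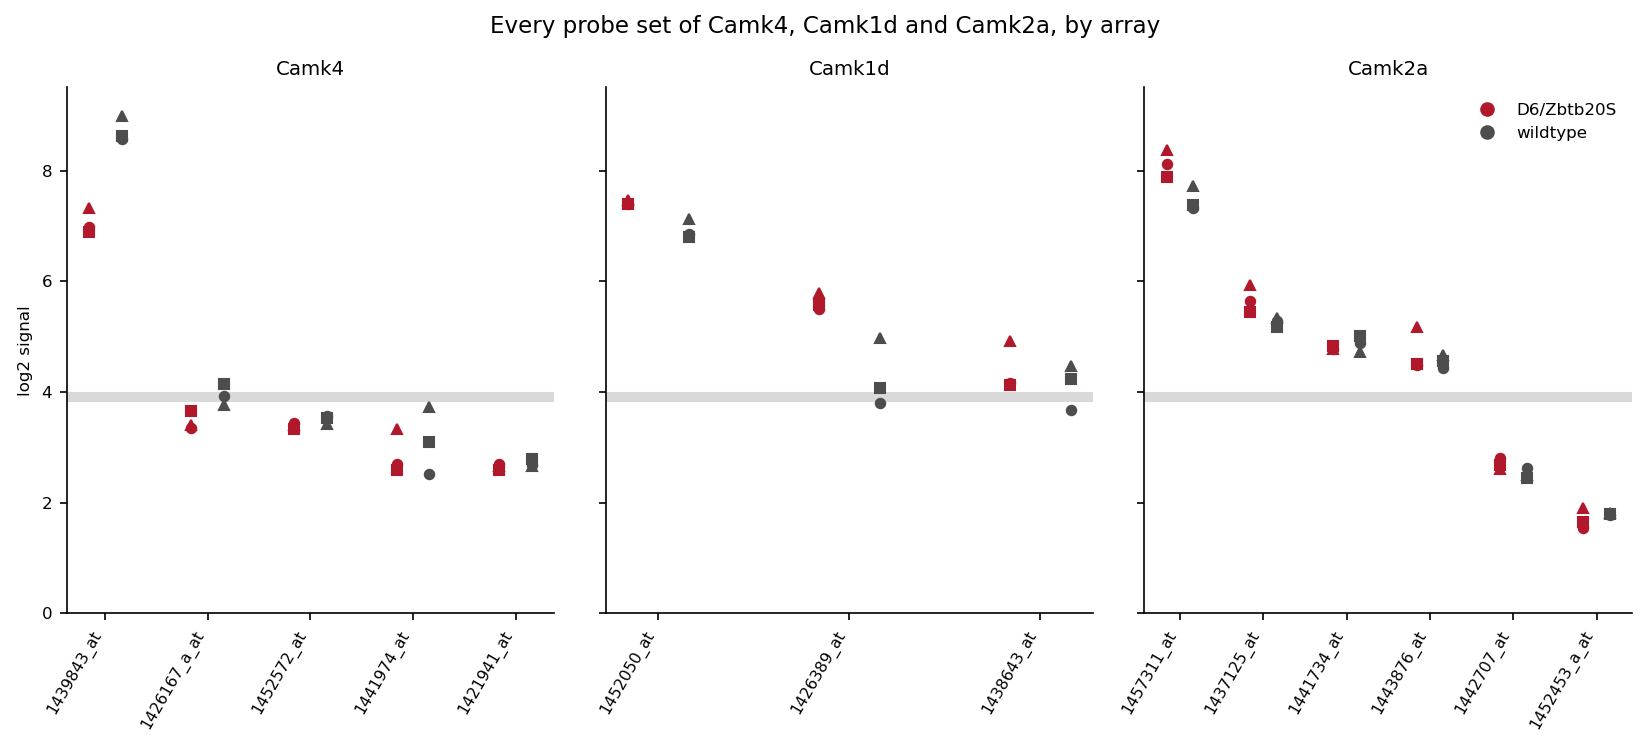
Log2 signal of every probe set of Camk4, Camk1d and Camk2a in each array, with D6/Zbtb20S (red) left of wildtype (grey) at each probe set. Circles, squares and triangles are replicates 1, 2 and 3, and the grey band spans the 6 array medians, from 3.83 to 3.97. The Camk4 gap is wide on 1439843_at and narrow on the 4 dim probe sets, and wildtype replicate 3 stands apart on 1426389_at of Camk1d.

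Camk1 encodes CaMKI alpha, the widely expressed isoform, and its differences were negative. On 1417604_at it read 5.22, 4.94 and 5.51 in D6/Zbtb20S arrays and 5.71, 5.71 and 5.45 in wildtype arrays, with overlap and a difference of -0.39 ± 0.15. On 1417605_s_at it read 4.95, 4.76 and 5.08 in D6/Zbtb20S arrays, against 5.42, 5.37 and 5.26 in wildtype arrays. On that probe set all transgenic arrays lay below the wildtype ones, and its difference of -0.42 ± 0.10 lay just outside the threshold. It passed without D6/Zbtb20S replicate 3 (-0.49), with equal array medians (-0.43) and with quantile normalization (-0.45). It also passed when only probe sets above the array median on at least 3 arrays were kept. With array weights both Camk1 probe sets passed (-0.53 on 1417604_at and -0.47 on 1417605_s_at), where 10.5% of all probe sets did. A probe set of the _s_at type can match more than 1 transcript.

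Camk1g encodes the gamma isoform of CaMKI, a membrane-anchored form of neurons linked to dendrite growth. Its probe set 1424633_at read 6.87, 6.89 and 7.0 in D6/Zbtb20S arrays and 6.87, 7.09 and 6.85 in wildtype arrays. The groups overlapped almost wholly, and the difference of -0.02 ± 0.09 had a 95% interval of -0.23 to 0.19.

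Camkk2 encodes CaM kinase kinase beta, which activates CaMKI and CaMKIV and also AMP-activated kinase. On 1424474_a_at it read 8.27, 8.43 and 8.66 in D6/Zbtb20S arrays and 8.19, 8.67 and 8.73 in wildtype arrays. All 4 of its probe sets had overlapping groups and differences from -0.18 to -0.03, and none passed. The interval on 1424474_a_at was -0.44 to 0.28, and the spread there was wider in wildtype (SD 0.30) than in D6/Zbtb20S tissue (SD 0.19).

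With 1 probe set per gene, the brightest over all arrays, 2 of the 9 genes passed as higher (Camk2a and Camk1d), 1 as lower (Camk4) and 6 did not pass. Adjustment was over all 18193 genes, of which 7.71% passed. As genes, Camk2a passed with 1 array left out in 2 of 6 cases, those without D6/Zbtb20S replicate 2 or wildtype replicate 3 (0.77 in both). Camk1d passed in 4 and missed without D6/Zbtb20S replicate 1 (0.51) or wildtype replicate 2 (0.44), while Camk4 passed in all 6. As the mean of its 5 probe sets Camk4 still passed, but at -0.51 in place of -1.66. The median difference of the 9 genes was -0.05, beside -0.02 over all genes.

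The genes whose profiles over the 6 arrays lay closest to those of Camk4 and Camk2a were sought by Euclidean distance between centred log2 signals, a distance of 0 meaning the same profile. For Camk4 these were the neurofilament light chain gene Nefl (distance 0.32), Car8, a carbonic anhydrase-related protein (0.34), and the potassium channel gene Kcnq5 (0.36), where the median over 18192 genes was 2.08. They differed between the genotypes by -1.67 ± 0.13, -1.52 ± 0.16 and -1.62 ± 0.12. As the means of their probe sets Nefl, Car8 and Kcnq5 differed by -1.48, -0.90 and -1.09. For Camk2a they were Cds1, a CDP-diacylglycerol synthase gene (0.12), Greb1l (0.15) and Neurl1a, a ubiquitin ligase gene (0.15), with a median of 0.96. Their differences were 0.69 ± 0.13, 0.63 ± 0.16 and 0.65 ± 0.15. Cds1 did not pass without D6/Zbtb20S replicate 1 (0.68). Greb1l and Neurl1a passed in 2 of the 6 cases with 1 array left out, missing without D6/Zbtb20S replicate 1 (0.60 and 0.68) or 3 (0.53 and 0.55) and wildtype replicate 1 (0.50 and 0.55) or 2 (0.60 and 0.59). As the means of their probe sets they differed by 0.34 and 0.08 and did not pass. In these 6 arrays a short distance is mostly a genotype difference of the same size and sign.

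The surroundings of the kinases were read from 6 lists with 80 genes (72 measured), each gene by its brightest probe set. Of the 72, 5 rose, 6 fell and 61 did not pass, at a median difference of -0.03, where 7.71% of all genes passed (4.06% higher, 3.64% lower) at a median of -0.02. The lists were written with earlier results of these data known.

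**Figure D4:**
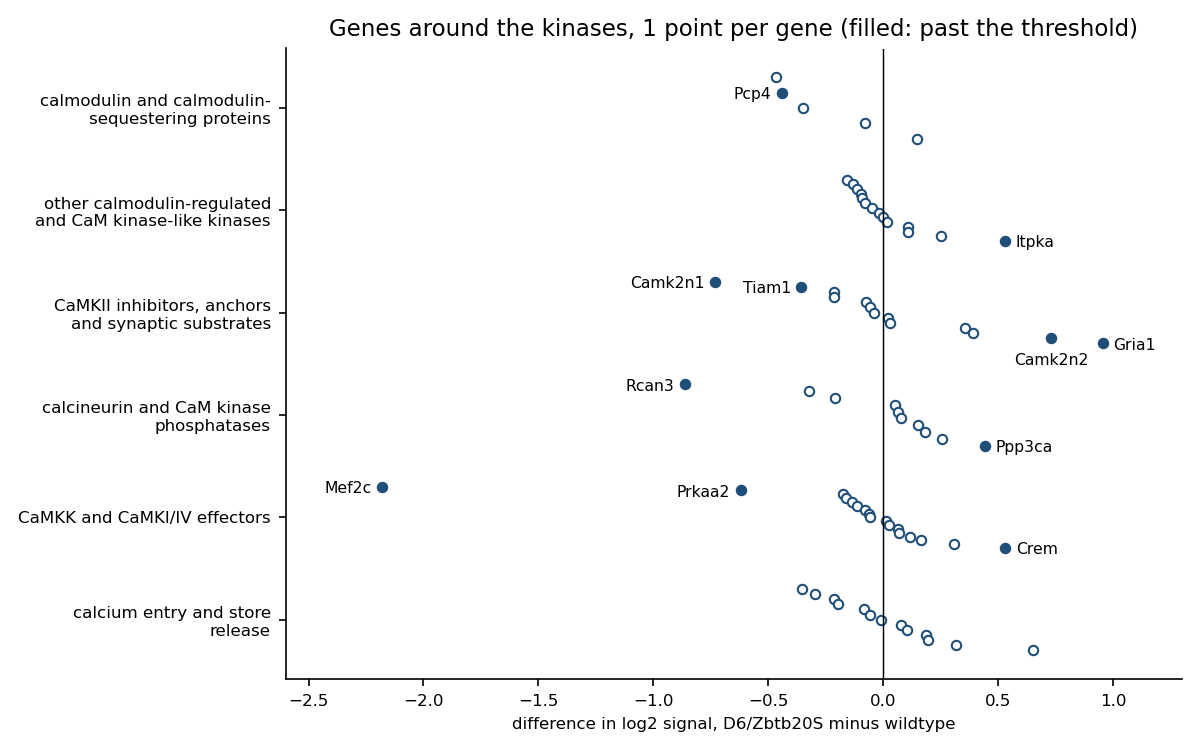
Difference in log2 signal, D6/Zbtb20S minus wildtype, of 72 genes around the kinases in 6 lists, 1 point per gene at its brightest probe set. Filled points passed the threshold over all genes and are named. The 11 filled points run from Mef2c at -2.18 to Gria1 at 0.96, with Camk2n1 and Camk2n2 on opposite sides of 0 and no filled point for calcium entry and store release.

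Among inhibitors, anchors and synaptic substrates of CaMKII, 2 of 13 measured genes rose, 2 fell and 9 did not pass. Of the 9, Syn2 had 2 other probe sets that passed over all probe sets, both higher like its brightest. Kalrn had 1 that passed, opposite in sign to its brightest. Both endogenous CaMKII inhibitor genes passed, in opposite directions. Camk2n1 read 9.53, 9.52 and 9.72 in D6/Zbtb20S arrays, against 10.21, 10.33 and 10.42 in wildtype arrays, and fell by 0.73 on the log2 scale (SE 0.09, limma adjusted p = 0.00106). Camk2n2 read 8.63, 8.60 and 8.66 in D6/Zbtb20S arrays, against 7.85, 7.89 and 7.96 in wildtype arrays, and rose by 0.73 ± 0.07 (limma adjusted p = 0.000287). For neither inhibitor did the arrays of the genotypes overlap, and both kept their call whichever array was left out. The second Camk2n1 probe set did not pass in the fit over all probe sets, but as the mean of its probe sets Camk2n1 passed, at -0.82. The AMPA receptor subunit gene Gria1, whose product is a CaMKII substrate, was 1.94-fold higher (0.96 ± 0.12, limma adjusted p = 0.000973), at 7.90, 8.08 and 8.40 in D6/Zbtb20S arrays, against 7.14, 7.20 and 7.18 in wildtype arrays. The Rac exchange factor gene Tiam1 was lower by a small amount (-0.36 ± 0.09, limma adjusted p = 0.0378). Tiam1 did not pass without D6/Zbtb20S replicate 1 (-0.34) or 2 (-0.32), without wildtype replicate 2 (-0.32) or 3 (-0.34), or as the mean of its probe sets (-0.31).

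Among effectors of CaM kinase kinase, CaMKI and CaMKIV, 1 of 17 genes rose, 2 fell and 14 did not pass. Of the 14, Creb1 and Mef2a each had 1 other probe set that passed over all probe sets, higher like the brightest. Crebbp had 2 that passed, opposite in sign to its brightest. Mef2c, a calcium-regulated transcription factor, was 4.53-fold lower in D6/Zbtb20S tissue (-2.18 ± 0.07), at 7.64, 7.71 and 7.72 in its arrays, against 9.85, 9.91 and 9.86 in wildtype arrays. Prkaa2, a catalytic subunit gene of AMP-activated kinase, read 6.00, 5.90 and 5.86 in D6/Zbtb20S arrays, against 6.47, 6.60 and 6.55 in wildtype arrays (-0.62 ± 0.08, limma adjusted p = 0.00121). Both passed whichever array was left out. Averaged over its probe sets, Prkaa2 passed at -0.37. Crem, a CREB-related gene, read 4.56, 4.52 and 4.60 in D6/Zbtb20S arrays, against 4.26, 3.77 and 4.06 in wildtype arrays (0.53 ± 0.12, limma adjusted p = 0.0233). The wildtype arrays were spread more widely than the transgenic ones. Crem did not pass without D6/Zbtb20S replicate 1 (0.53), 2 (0.55) or 3 (0.51), without wildtype replicate 2 (0.40), or as the mean of its probe sets (0.22).

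Calcineurin is the calcium/calmodulin-activated phosphatase that opposes many CaM kinase actions. In the list of calcineurin and CaM kinase phosphatases, 1 of 10 genes rose, 1 fell and 8 did not pass. Ppp3ca, its alpha catalytic subunit gene, read 10.14, 10.24 and 10.32 in D6/Zbtb20S arrays, against 9.70, 9.85 and 9.82 in wildtype arrays (0.44 ± 0.08, limma adjusted p = 0.0115). Rcan3, a calcineurin regulator gene, was 1.82-fold lower (-0.86 ± 0.09, limma adjusted p = 0.000358), at 5.57, 5.40 and 5.65 in D6/Zbtb20S arrays and 6.37, 6.35 and 6.50 in wildtype arrays. Both passed whichever array was left out, and in each case other probe sets of the gene passed in the same direction (2 for Ppp3ca, 1 for Rcan3).

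Of 5 measured genes for proteins that hold calmodulin, 0 rose, 1 fell and 4 did not pass. Of the 4, Marcks differed by -0.35 without overlap on its brightest probe set, and 2 of its other probe sets passed as lower over all probe sets. Pcp4, a small calmodulin-binding protein gene, differed by -0.44 ± 0.09 (limma adjusted p = 0.0142) and did not pass without D6/Zbtb20S replicate 2 (-0.42) or 3 (-0.40). Among 14 other calmodulin-regulated and CaM kinase-like kinases 1 rose, Itpka, an inositol trisphosphate kinase gene whose product binds actin in dendritic spines (0.53 ± 0.12, limma adjusted p = 0.0228). Itpka did not pass without D6/Zbtb20S replicate 1 (0.57) or wildtype replicate 1 (0.49). None of 13 calcium entry and store release genes passed. The smallest p were those of the L-type channel gene Cacna1c (-0.35 ± 0.10, limma adjusted p = 0.0572) and the calcium store sensor gene Stim2 (0.32 ± 0.09, limma adjusted p = 0.0574), both with no overlap between genotypes. Cacna1c passed with equal array medians (-0.37) and quantile normalization (-0.39), and Stim2 without wildtype replicate 3 (0.36).

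Markers of other cells moved with the genotype beside these differences. Of 10 microglial markers 4 were higher, among them the fractalkine receptor gene Cx3cr1 (0.87 ± 0.16) and the adaptor gene Tyrobp (0.69 ± 0.11), with Cx3cr1 at 0.43 as the mean of its probe sets. The mean log2 signal of the whole microglial list was 5.56 to 5.86 in D6/Zbtb20S arrays and 5.17 to 5.30 in wildtype arrays. Of 7 oligodendrocyte lineage markers 4 were lower, among them the lineage factors Olig2 (-0.77 ± 0.11) and Olig1 (-0.68 ± 0.08), with list means of 6.33 to 6.48 in D6/Zbtb20S and 6.73 to 6.97 in wildtype arrays. Of 10 GABAergic markers 1 was lower, the GABA-synthesising enzyme gene Gad1 (-0.60 ± 0.10), with list means of 5.85 to 5.91 in D6/Zbtb20S and 6.03 to 6.06 in wildtype arrays. The glutamatergic list, with 2 higher and 2 lower of 7, had means of 7.57 to 7.72 in D6/Zbtb20S and 7.59 to 7.91 in wildtype arrays. The genes that rose were the neuronal transcription factors Neurod2 (1.12 ± 0.11, limma adjusted p = 0.000213) and Bcl11b (0.99 ± 0.10, limma adjusted p = 0.000267), and those that fell were Tbr1 (-1.41 ± 0.12) and the vesicular transporter gene Slc17a6 (-1.26 ± 0.17). As the mean of its probe sets Neurod2 still passed, at 0.55, and Slc17a6 did not, at -0.57.

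In the astrocyte and radial glia list 1 of 10 was lower (Sox2, -0.42 ± 0.11), and in the endothelial and mural list 1 of 9 (Slc2a1, -0.36 ± 0.08). Of the 10 astrocyte and radial glia differences 5 were positive, at a list median of 0.003. Gfap (0.56 ± 0.21) did not pass, though all its D6/Zbtb20S arrays lay above the wildtype ones. Aqp4 (0.37 ± 0.19) did not pass on its brightest probe set, but 1 other passed as higher over all probe sets. Sox2 did not pass without D6/Zbtb20S replicate 2 (-0.39) or 3 (-0.37) or wildtype replicate 2 (-0.44) or 3 (-0.33). Slc2a1 passed only when wildtype replicate 1 was the array left out, and differed by -0.37 to -0.32 without each of the other 5 in turn. In both lists the means of the genotypes overlapped. Of the intermediate progenitor and cycling markers 1 of 5 was higher (Neurog2, 0.87 ± 0.16) and 1 lower (Eomes, -1.11 ± 0.21), and of 8 choroid plexus and meningeal markers 0 were called. Neurog2 did not pass without D6/Zbtb20S replicate 1 (0.82), nor Eomes without D6/Zbtb20S replicate 3 (-0.97). No marker is at 0 on this scale, and those under the array median on all arrays were 1 GABAergic, 1 endothelial and mural and 2 choroid plexus and meningeal genes. The part of these markers in the kinase differences was not tested.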

How the data were processed

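Affymetrix arrays gave 1 log2 value per probe set and array. The authors deposited these log2 values, and RMA and limma are named in the submitters' processing notes, with versions, roles, final scaling and centring not given in the sources used here. Of 45101 probe sets, 64 controls were left out, and 34945 of the 45037 tested had a single gene symbol in the platform annotation, updated through RefSeq gene IDs (GRCm38.p6, names only). A gene was represented by its probe set with the highest mean.

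Differences, D6/Zbtb20S minus wildtype, came from lmFit and eBayes without covariates (limma 3.58.1, R 4.3.3), run on all probe sets or on all 18193 genes, with Benjamini-Hochberg adjustment over each table and a threshold of 0.05. The fit was tested on simulated data. Arrays have no read depth, and the number of arrays limits precision. Figures were drawn with matplotlib 3.10.9.

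The members and gene lists were chosen with earlier results of these data known. Every passing member probe set, or the brightest of a gene, is given by array. Up to 4 passing genes per pathway list (largest differences, or the 2 smallest p), up to 2 per marker list, and the 3 nearest profiles are named, with Zbtb20 as the check of the transgene, and Neurod2, Bcl11b, Nrgn and the CaM kinase relatives were added after their values were seen. Alternatives were equal array medians, weighted arrays, a replicate block, quantile normalization, a variance trend on intensity, leaving out each array, an ordinary linear model, averaging the probe sets of a gene, and keeping only probe sets above the array median on at least 3 arrays.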

Additional observations from a re-analysis of the deposited data

How the results depend on the processing

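The member probe sets past the threshold numbered 4 of 31, and between 1 and 5 when 1 array was left out. In those runs with 1 array left out, 2.58% to 6.4% of all probe sets passed. The count was 7 with array weights, and 0 in the ordinary linear model without empirical Bayes. Counted as genes, 3 of 9 passed, 1 to 3 with an array left out, and 0 in the ordinary linear model. Pathway genes past the threshold numbered 11, between 8 and 12 with an array left out, 18 with array weights and 4 (Camk2n2, Mef2c, Prkaa2 and Rcan3) in the ordinary linear model. The same settings moved the count over all probe sets, which was 2484, to 4710 with array weights and 200 in the ordinary linear model. It fell to 1162 without wildtype replicate 2, 1306 without D6/Zbtb20S replicate 2 and 1341 without D6/Zbtb20S replicate 1. It rose to 2881 without wildtype replicate 3. Over all genes the count was 1402, 2707 with array weights and 267 in the ordinary linear model. It was 837 without D6/Zbtb20S replicate 1, 777 without wildtype replicate 2 and 1538 without wildtype replicate 3. No called difference of a named gene or probe set changed sign in any alternative run. The labels do not say that the replicate numbers pair pools, so the numbers were not taken as pairs. Deviations of same-numbered arrays from their group means correlated at r = -0.03, 0.18 and 0.21 for replicates 1, 2 and 3, over all probe sets. Differently numbered arrays gave r from -0.26 to 0.15. These values do not settle whether the pools were paired. With the replicate block 6 member probe sets (of all probe sets, 3304 or 7.34%), 3 member genes (of all genes, 1343 or 7.38%) and 13 pathway genes passed. The block brought Camk2a 1437125_at (0.41), Camk4 1426167_a_at (-0.48) and Nrgn (-0.47) past the threshold and took Tiam1 (-0.36) and Sox2 (-0.42) out. With 3 arrays per genotype and no probe-level files used here, signals under the array median limit what can be read from 11 of the member probe sets.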

Other observations

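The 6 CaM kinase relatives given here were chosen after their values were seen, and none passed between the genotypes. They are part of the list of 14 other calmodulin-regulated and CaM kinase-like kinases, in which Itpka passed as higher. Pnck, the CaMKI beta gene, read 7.17, 7.01 and 7.37 in D6/Zbtb20S arrays and 7.43, 7.19 and 6.98 in wildtype arrays, a difference of -0.02 ± 0.13. Camkv, which encodes a kinase-like synaptic protein without catalytic activity, differed by -0.11 ± 0.10. The doublecortin-like kinase gene Dclk1, expressed in young neurons, read 9.89, 9.90 and 9.84 in D6/Zbtb20S arrays and 9.89, 10.01 and 10.02 in wildtype arrays, a difference of -0.10 ± 0.08. Dclk2 differed by -0.16 ± 0.09, with all D6/Zbtb20S arrays below the wildtype ones, but by 0.03 as the mean of its probe sets. The scaffold kinase gene Cask differed by -0.09 ± 0.10, with overlap, and Dclk3 lay under the array median on all arrays. None of these 6 genes passed the threshold of the limma fit over all genes.

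Neurogranin (Nrgn), a calmodulin reservoir of forebrain neurons chosen here after its values were seen, read 8.05, 8.17 and 8.51 in D6/Zbtb20S arrays and 8.41, 8.72 and 9.0 in wildtype arrays. The groups overlapped, and the difference of -0.47 ± 0.16 did not pass (limma adjusted p = 0.126). It passed with equal array medians (-0.48), with array weights (-0.53) and without wildtype replicate 1 (-0.62).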
